A study of Homo sapiens with 6 samples.

Results

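The 9 genes described here encode checkpoint ligands, surface or secreted proteins with which a cell restrains immune cells. They are VTCN1, CD274, PDCD1LG2, CD276, HHLA2, PVR, NECTIN2, LGALS9 and CD47, found by gene symbol among 21462 genes of a table of read counts. The cells were the established human line HO-1-N-1, derived from squamous carcinoma of the mouth. Cells of 3 libraries had been given a control siRNA, and those of the other 3 an siRNA against Sam68, the RNA-binding protein encoded by KHDRBS1. All 6 libraries were thus transfected, with the same lipid reagent, and came from poly(A) RNA of this single line. The control libraries are numbered 1, 3 and 5 and the Sam68 siRNA libraries 1, 2 and 3. The labels do not say which of them came from separate cultures, so SDs and p-values measure the spread between libraries, which may be technical.

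VTCN1 was chosen by its fold change between these same libraries, and the other ligands were added by function with the results known. The levels and fold changes of the 9 genes are therefore a description, and no p-value is given for them. Where the text says whether one of them passed the threshold of the fit over all genes, this too only describes the values that the choice used. P-values are given for KHDRBS1 and for the genes around the ligands. The lists of those genes were also chosen with earlier results of these data known, so their p-values and shares are descriptive.

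Checkpoint ligands of the B7 family, which include PD-L1 (CD274), PD-L2 (PDCD1LG2), B7-H3 (CD276), B7-H4 (VTCN1) and HHLA2, carry immunoglobulin domains and act on T cells. PD-L1 and PD-L2 bind the inhibitory receptor PD-1, and interferon gamma is the best known inducer of PD-L1. The receptor of B7-H4 has not been settled, and B7-H4 is known as a protein of epithelial tumours. PVR and NECTIN2 are nectin family adhesion molecules that bind the inhibitory receptor TIGIT and the activating receptor CD226 on T and NK cells. Galectin 9 (LGALS9) is a lectin that binds TIM-3, among others, and CD47 binds SIRP alpha on macrophages and restrains phagocytosis.

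The sequences below are the ones that the results on VTCN1 and CD274 refer to. The promoters run from 250 bases before to 50 bases after the annotated start in RefSeq on GRCh38.p14, and the start base counts as 1. Capitals mark matches to the short motifs named after them. The VTCN1 window lies at chr1:117210878-117211177 on the minus strand and the CD274 window at chr9:5450292-5450591 on the plus strand.

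VTCN1 promoter: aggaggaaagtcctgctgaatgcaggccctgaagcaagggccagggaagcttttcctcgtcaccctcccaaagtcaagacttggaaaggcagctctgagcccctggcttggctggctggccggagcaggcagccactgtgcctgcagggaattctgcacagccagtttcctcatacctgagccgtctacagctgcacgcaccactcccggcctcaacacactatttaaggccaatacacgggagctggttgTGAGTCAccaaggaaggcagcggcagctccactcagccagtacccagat

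CD274 promoter: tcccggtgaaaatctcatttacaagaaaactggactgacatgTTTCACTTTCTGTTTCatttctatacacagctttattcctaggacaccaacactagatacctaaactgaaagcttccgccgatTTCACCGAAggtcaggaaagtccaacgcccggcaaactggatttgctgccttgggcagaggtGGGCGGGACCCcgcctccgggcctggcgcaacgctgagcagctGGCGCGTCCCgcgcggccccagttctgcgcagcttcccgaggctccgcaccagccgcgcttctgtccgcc

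Both strands were searched for the AP-1 motif TGANTCA, the STAT motif TTCNNNGAA and the E-box CACGTG. The search also took the TEAD motif GGAATG, the TATA box and, as loose patterns, a tandem IRF pair and an NF-kB site. In the VTCN1 window the only match among these 7 was the AP-1 motif TGAGTCA, at bases 2 to 8 after the start. This motif lay in 7.71% of all 35116 promoter windows. Among the other ligands it also lay in a window of HHLA2, at -139 to -133, and HHLA2 had 0 counts in every library. The CD274 window held overlapping IRF pairs, at -208 to -199 and -202 to -193 on the opposite strand, and a STAT match at -125 to -117. An IRF pair lay in 3.57% of all windows, windows of HHLA2 and LGALS9 included, and a STAT match in 7.66%. The loose NF-kB pattern, with matches at -63 to -54, -62 to -53 and -20 to -11 in the CD274 window, the first of which overlaps the next, lay in 58.7% of all windows. A match is a run of letters and was not tested as a binding site.

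The 3' UTR of VTCN1, 1684 bases long in its GENCODE 29 transcript, held ACTGATT. This heptamer had been singled out in an earlier look at these data, VTCN1 included, so its presence here is no independent support. It is not the known core of Sam68 sites, which is given further below. What binds this heptamer, if anything, was not tested. Capitals mark it in the stretch below, at chr1:117143627-117143655 on the minus strand of GRCh38, in exon 6 of 6 and starting at base 1627 of the 3' UTR.

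VTCN1 3' UTR: tgttatagaaaACTGATTttagagttctg

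None of the 3' UTRs of the other 8 ligands held it. The heptamer lay in 11.8% of 18427 3' UTRs searched, and in 13.8% of the 4443 with a length within 1.5-fold of that of VTCN1. By the same measure the share was between 1.38% for CD47, with 207 bases searched, and 21.4% for CD274, with 2685 bases. NECTIN2 and LGALS9 were also short, at 321 and 578 bases. With 1 transcript searched per gene and such low shares, absence from the other ligands says little. The other heptamer singled out in that look, GCAGTAC, lay in none of the 9. The letters TAAA, the core of the sites Sam68 is known to bind, occurred 4.16 times per kilobase in the VTCN1 3' UTR, and between 3.12 (NECTIN2) and 8.49 (PDCD1LG2) in the others. The median over all 3' UTRs was 7.87 per kilobase.

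The libraries held between 16099488 and 17336651 counts. KHDRBS1 was lower in each Sam68 siRNA library, with 28.9, 32.9 and 31.4 TPM (a level scaled to transcript length and library size) against 248, 228 and 190 TPM in controls 1, 3 and 5. Its log2 fold change was -2.84 (SE 0.09, adjusted p = 1.56e-08 by edgeR's quasi-likelihood test), and it was lower in 3 of 3 libraries. Control replicate 5 stood apart from the other controls. Mitochondrial transcripts made up 2.27% of its counts against 0.158% to 0.671% in the other 5 libraries, and FOS, a subunit of AP-1, was at 203 CPM (counts scaled to library size, not to length) against 3.75 to 9.48 CPM. The 10 markers listed as squamous epithelial include KRT8, CDH1 and EPCAM, which are not particular to squamous cells. KRT18 shares exon bases with KRT8 on the other strand and held 64.1% of its count. All 10 were tested, and their summed level was 11072 to 11900 CPM in the controls and 11353 to 12090 CPM with the Sam68 siRNA. This sum rests mostly on keratins, and 2 of the 10 rose and 1 fell. DSG3, a desmosomal cadherin, fell by 0.65 on the log2 scale, and KRT5 and TP63 rose by 0.20 and 0.33 (edgeR adjusted p = 6.95e-05, 0.00692 and 0.0124). Of 23 markers of leukocytes, B, NK and myeloid cells, CD14 alone passed the filter, and the others had at most 11 counts in a library. PTPRC, CD3E and NKG7 had at most 2 counts. CD14 was at 3.15 ± 0.369 CPM in the controls and 4.18 ± 0.492 CPM with the Sam68 siRNA (n = 3 each), with no overlap, and was not called (log2 fold change 0.41, edgeR adjusted p = 0.133). CSF1R, also a myeloid marker, had 8 to 11 counts in the controls and 2 to 6 with the Sam68 siRNA and was too low for the fit. The summed level of the 7 myeloid markers was 3.50 to 4.01 CPM in the controls and 3.81 to 4.85 CPM with the Sam68 siRNA. Of 5 endothelial markers CDH5 alone passed the filter, with 35 to 53 counts in a library. It was not called (log2 fold change -0.15, edgeR adjusted p = 0.692), and the other endothelial markers had at most 13 counts.

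VTCN1 (ENSG00000134258, hg38 chromosome 1, 117143587 to 117210960, minus strand) was the ligand that differed most. Its level was 22.3, 25.2 and 27.9 TPM in controls 1, 3 and 5 and 4.84, 5.73 and 6.56 TPM in Sam68 siRNA libraries 1, 2 and 3. The lowest control lay above the highest Sam68 siRNA library, and control replicate 5 was the highest of the 6. The mean was 25.1 ± 2.82 TPM in the controls and 5.71 ± 0.859 TPM with the Sam68 siRNA (SD, n = 3 each). These levels rest on 1276 and 299 reads per group. The level was 4.43-fold lower with the Sam68 siRNA in the fit over all genes, a log2 fold change of -2.15 (SE 0.14). Without control replicate 5 it was -2.03, and over the 14 alternative settings it lay between -2.26 and -1.96. In bulk RNA, fewer cells that express VTCN1 and less VTCN1 mRNA per cell cannot be told apart.

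By log2 fold change, lowest first, VTCN1 stood 14th of all 12351 tested genes and 7th of the 10499 averaging 5 CPM or more. The 6 below it there were FOS, FOSB, KHDRBS1, SPRR2D, SPP1 and EGR1, of which KHDRBS1 and SPP1, which encodes osteopontin, passed an adjusted p of 0.05. Without control replicate 5 it stood 4th of the 10499. The median over all 12351 tested genes was -0.00, and 86.3% of them lay within 0.4 of 0 on the log2 scale. In each control VTCN1 stood 5th of the 9 ligands by TPM, and in each Sam68 siRNA library it stood 8th, above HHLA2 alone. Between 58.2% and 64.6% of the genes with a level above 0 lay below it in the controls, and between 31.1% and 34.8% with the Sam68 siRNA.

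**Figure D1:**
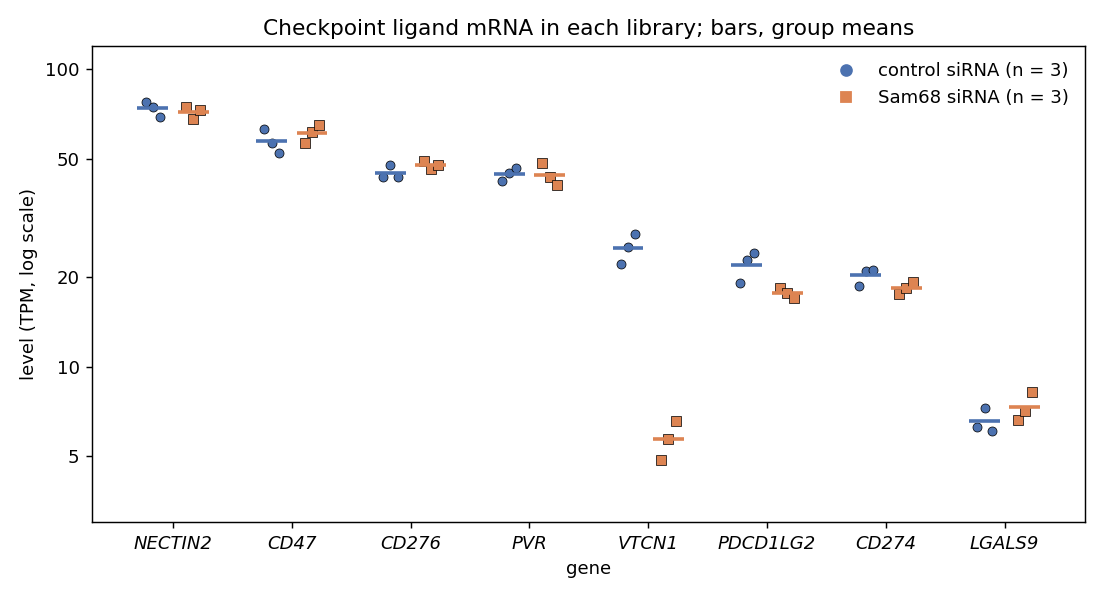
Level of the 8 detected checkpoint ligands in each library, in TPM on a log axis. Circles are the 3 control siRNA libraries, squares the 3 Sam68 siRNA libraries and bars the group means; the means of VTCN1 are 25.1 and 5.71 TPM, while those of PDCD1LG2, the next furthest apart, are 22.1 and 17.7 TPM.

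Ratios within a library do not depend on how libraries are scaled. They reuse the VTCN1 levels by which VTCN1 was chosen, so they restate that difference and are no independent support. VTCN1 made up 7.61%, 8.39% and 9.56% of the summed TPM of the 9 ligands in controls 1, 3 and 5 and 1.76%, 2.13% and 2.36% with the Sam68 siRNA. The ratio of VTCN1 to CD274 was 1.19, 1.20 and 1.31 in the controls and 0.277, 0.311 and 0.341 with the Sam68 siRNA. The groups did not overlap in either ratio, and nothing is read from this. In TPM the groups did not overlap for 34.9% of all tested genes. The summed TPM of the other 8 ligands was 264 to 275 in the controls and 263 to 271 with the Sam68 siRNA, ranges that overlap.

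**Figure D2:**
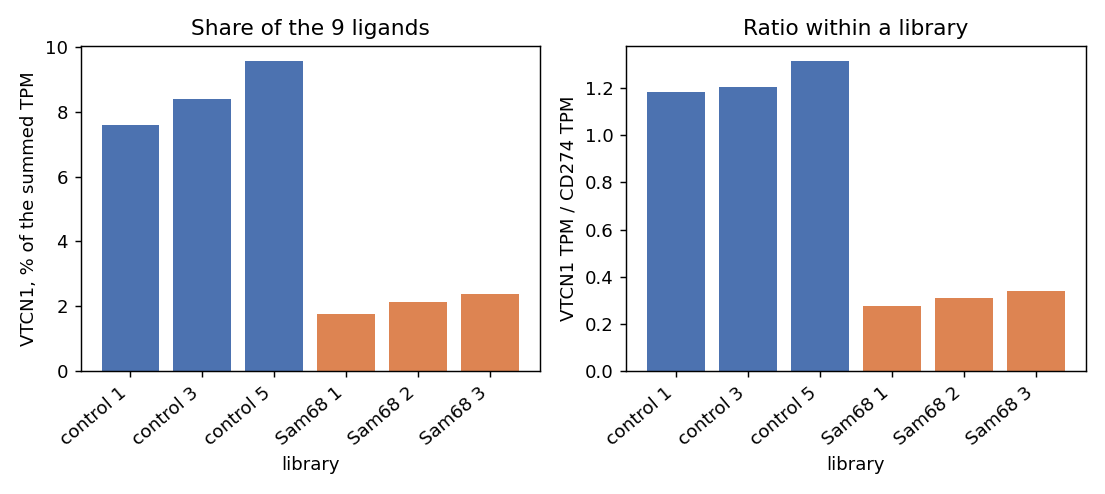
VTCN1 as a percent of the summed TPM of the 9 ligands (left) and as a ratio to CD274 (right), 1 bar per library and control libraries first. Both measures are lower in each Sam68 siRNA library than in each control, with shares of 1.76% to 2.36% against 7.61% to 9.56%.

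The genes whose levels followed VTCN1 most closely were sought among 10491 genes of at least 5 CPM, by Pearson's r of log2 CPM over the 6 libraries. The highest values were those of TRIM16L (0.999), OPTN (0.998), SCEL (0.997), FYB1 (0.997) and PSTPIP2 (0.997). SCEL encodes sciellin, a precursor of the cornified envelope, and its log2 fold change was -1.18 (SE 0.09). OPTN encodes the autophagy receptor optineurin and stood at -0.42 (SE 0.05). TRIM16L, which shares sequence with TRIM16 and is uncertain for that reason, stood at -0.55, the adaptor FYB1 at -0.64 and PSTPIP2 at -0.26. An r over 0.95 was reached by 354 genes and one under -0.95 by 390, since any gene that separates the groups of 3 scores high. No p is given for these values. COL1A1, listed here as a fibroblast marker, was at 33.2 ± 1.23 CPM in the controls and 9.87 ± 1.05 CPM with the Sam68 siRNA (n = 3 each). Like VTCN1 it was lower with the Sam68 siRNA. In controls 1, 3 and 5 it was at 34.6, 32.8 and 32.2 CPM, while VTCN1 was at 22.7, 25.4 and 30.2 CPM. All 6 fibroblast markers had a count, 3 of them passed the filter, and their summed level was 37.0 to 41.9 CPM in the controls and 13.1 to 16.3 CPM with the Sam68 siRNA. LUM had 36 to 106 counts and COL1A2 24 to 40 counts in a library, with log2 fold changes of -0.69 (SE 0.35) and -0.49 (SE 0.22) that were not called (edgeR adjusted p = 0.202 and 0.147). COL3A1 had at most 6 counts, and DCN and PDGFRB at most 1. The part of such cells in the VTCN1 result was not tested.

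The PD-1 ligands CD274 and PDCD1LG2 lie 39964 bases apart on chromosome 9. CD274 (ENSG00000120217, 5450503 to 5470566, plus strand) stood at 18.8, 20.9 and 21.2 TPM in controls 1, 3 and 5 and at 17.5, 18.4 and 19.3 TPM with the Sam68 siRNA. Control replicate 1 lay inside the range of the Sam68 siRNA libraries, so the groups overlapped. The log2 fold change was -0.15 (SE 0.09), and without control replicate 5 it was -0.08. PDCD1LG2 (ENSG00000197646, 5510531 to 5571282, plus strand) stood at 19.2, 22.9 and 24.2 TPM in the controls and at 18.4, 17.7 and 17.1 TPM with the Sam68 siRNA. The groups did not overlap, though control replicate 1 lay 0.82 TPM above the nearest Sam68 siRNA library. Its log2 fold change was -0.33 (SE 0.11). It was -0.43 without control replicate 1, where it crossed the threshold of the fit over all genes, and -0.22 without control replicate 5. The ratio of PDCD1LG2 to CD274 was 1.02, 1.09 and 1.14 in the controls and 1.05, 0.958 and 0.885 with the Sam68 siRNA, with overlap.

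CD276 (ENSG00000103855, chromosome 15, 73683966 to 73714514, plus strand), the most abundant B7 ligand here, stood at 43.3, 47.7 and 43.6 TPM in controls 1, 3 and 5 and at 49.1, 46.2 and 47.6 TPM with the Sam68 siRNA. The groups overlapped, and its log2 fold change was 0.08 (SE 0.06). HHLA2 (ENSG00000114455, chromosome 3, 108296490 to 108378285, plus strand), which binds the receptors TMIGD2 and KIR3DL3, had 0 counts in all 6 libraries and was not tested. A count of 0 allows a level of up to 3 counts, between 0.173 and 0.186 CPM of the library totals. It lies 204627 bases from CD47, whose reads were among the most numerous of the set.

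The nectin family ligands PVR and NECTIN2 lie 180012 bases apart on chromosome 19. PVR (ENSG00000073008, 44643798 to 44666162, plus strand) stood at 42.2, 44.8 and 46.7 TPM in controls 1, 3 and 5 and at 48.4, 43.6 and 40.9 TPM with the Sam68 siRNA. NECTIN2 (ENSG00000130202, 44846175 to 44889223, plus strand) was the most abundant ligand in every library, with 77.6, 74.8 and 69.4 TPM in the controls and 74.6, 67.9 and 73.1 TPM with the Sam68 siRNA. Both pairs of groups overlapped. The log2 fold changes were -0.02 (SE 0.08) for PVR and -0.05 (SE 0.06) for NECTIN2, and that of PVR was 0.05 without control replicate 5. CEACAM19 shares exon bases with PVR on the same strand and held 4.3% of its count, and an antisense RNA overlaps NECTIN2.

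LGALS9 (ENSG00000168961, chromosome 17, 27629798 to 27649560, plus strand) was at 6.29, 7.27 and 6.09 TPM in controls 1, 3 and 5 and at 6.61, 7.12 and 8.21 TPM with the Sam68 siRNA. The groups overlapped, and the log2 fold change was 0.15 (SE 0.13). Its near-identical relatives LGALS9B and LGALS9C had at most 34 and 17 counts in a library against 107 to 143 for LGALS9, and reads could be shared among them, so its level is uncertain. CD47 (ENSG00000196776, chromosome 3, 108043091 to 108091862, minus strand) was at 62.9, 56.8 and 52.4 TPM in the controls and at 56.5, 61.8 and 65.1 TPM with the Sam68 siRNA. The groups overlapped, with control replicate 1 above Sam68 siRNA replicates 1 and 2, and the log2 fold change was 0.09 (SE 0.07).

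Of the 8 ligands in the fit, 1 (VTCN1) was past its threshold and lower, 0 were past it and higher, and 7 were not past it. Over all tested genes 9.33% rose and 9.76% fell, or 19.1% in either direction. The groups did not overlap in TPM for 2 of the 8, against 34.9% of all tested genes. The ligands had been chosen with this contrast in view, and nothing is read from these counts. Their median log2 fold change was -0.03. In the authors' deposited table the fold change of VTCN1 was -4.42 (negative where lower), that of PDCD1LG2 -1.25 and that of CD274 -1.11.

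**Figure D3:**
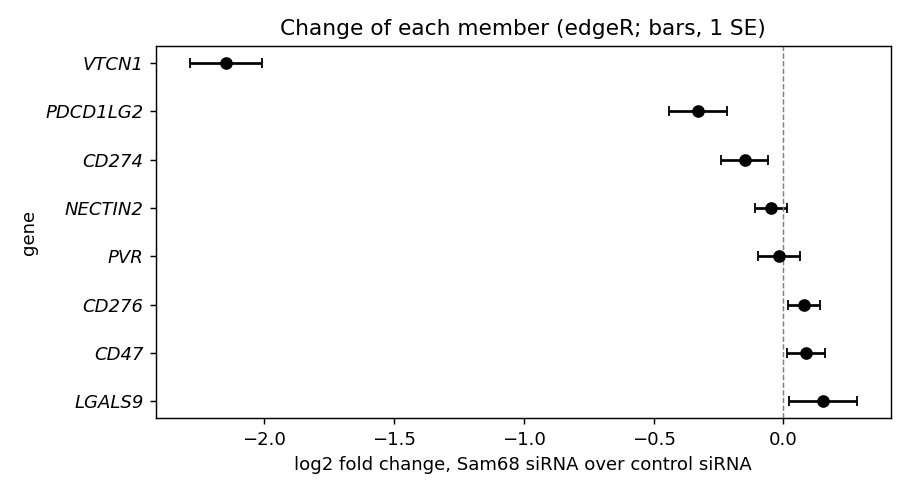
Log2 fold change of each tested ligand, Sam68 siRNA over control siRNA, with bars of 1 SE from the edgeR fit over 6 libraries. VTCN1 stands at -2.15, PDCD1LG2 at -0.33, and the other 6 between -0.15 and 0.15.

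By TPM the order in the controls was NECTIN2, CD47, CD276, PVR, VTCN1, PDCD1LG2, CD274, LGALS9 and HHLA2. The libraries of CD276 and PVR overlapped, as did those of VTCN1 and PDCD1LG2 and those of PDCD1LG2 and CD274, so these neighbours cannot be ordered. With the Sam68 siRNA the order was NECTIN2, CD47, CD276, PVR, CD274, PDCD1LG2, LGALS9, VTCN1 and HHLA2, with overlap between CD276 and PVR and between CD274 and PDCD1LG2. LGALS9 and VTCN1, the lowest detected pair, did not overlap there, though 6.61 TPM for LGALS9 and 6.56 TPM for VTCN1 lay side by side. The spread between libraries was 11.2% of the mean for VTCN1 in the controls, where counting alone gives 4.85%. For LGALS9, the ligand with fewest reads after HHLA2 in the controls, the spread was 9.59% and counting alone gives 9.37%.

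The genes around these ligands were examined in 10 lists by function. Of 112 tested list genes, each counted once, 17 rose and 15 fell (28.6%, against 19.1% of all tested genes), and 12 of these 32 passed the threshold with each of the 6 libraries left out in turn. The lists were chosen with earlier results of these data known. These shares and those below therefore only describe the lists, and nothing further is read from them. Adjusted p-values below are those of edgeR's quasi-likelihood test over all 12351 genes, and levels are in CPM with the SD over 3 libraries.

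Relatives of the B7 ligands were lower where they were called with all 6 libraries. Without control replicate 3, 5 were called, of which 4 fell and 1 rose. Of 16 other B7 and butyrophilin ligands 8 were tested, of which 0 rose, 4 fell and 4 were not called (50% called, against 19.1% of all tested genes). VSIR, which encodes the inhibitory B7 molecule VISTA, fell from 48.6 ± 1.01 to 36.9 ± 2.39 CPM (n = 3 each), with a log2 fold change of -0.40 (SE 0.07; edgeR adjusted p = 0.00339). BTN3A1, BTN3A2 and BTN3A3, butyrophilins known for activating gamma delta T cells, fell by 0.42, 0.51 and 0.33 on the log2 scale (adjusted p = 0.00253, 0.00105 and 0.0134 by edgeR). BTN3A2 was at 78.1, 76.1 and 70.2 CPM in controls 1, 3 and 5 and at 48.7, 56.5 and 52.7 CPM with the Sam68 siRNA. These 3 genes are close relatives that could share reads, and their separate levels are uncertain. Without Sam68 siRNA replicate 2 the adjusted p of BTN3A3 was 0.0505. The median log2 fold change of the tested genes was -0.29. CD80, the ligand of CD28 and CTLA4, had 0 counts in every library, and its relative CD86 at most 4.

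Of 18 checkpoint receptors of lymphoid and myeloid cells, 12 had 0 counts in all libraries. SIRPA, the receptor of CD47, was the 1 tested, at 1.74 CPM in the controls and 1.85 CPM with the Sam68 siRNA (log2 fold change 0.09, SE 0.25). It was not called by edgeR or by DESeq2, and its unadjusted p was above 0.05 as well. The 17 not tested had at most 5 counts in a library.

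Among 10 tested of 17 other inhibitory ligands and enzymes 0 rose, 3 fell and 7 were not called (30% called, against 19.1% of all tested genes), with a median log2 fold change of -0.19. HLA-E, a ligand of the NK receptor NKG2A, fell from 537 ± 11.9 to 453 ± 18.7 CPM (n = 3 each), a difference of -0.24 on the log2 scale with an SE of 0.06 (edgeR adjusted p = 0.0126). Relatives in the HLA family could share its reads. CD24, a ligand of Siglec-10, and IDO1, which degrades tryptophan, fell by 0.21 and 0.40 on the log2 scale (adjusted p = 0.022 and 0.0348 by edgeR). Leaving out Sam68 siRNA replicate 1 left 0 called, and leaving out replicate 2, replicate 3 or control replicate 3 left 1. Without control replicate 5 it was 4.

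Nectins moved in both directions. Of 5 tested of 9 nectins and nectin-like molecules 1 rose, 1 fell and 3 were not called (40%, against 19.1%), with a median log2 fold change of 0.25. NECTIN1, an adhesion molecule of epithelial junctions, was at 259, 293 and 255 CPM in controls 1, 3 and 5 and at 370, 341 and 374 CPM with the Sam68 siRNA, with no overlap. It rose by a log2 fold change of 0.43 (SE 0.07, adjusted p = 0.0015 by edgeR). NECTIN4, known as a surface antigen of epithelial tumours, fell from 22.4 ± 1.55 to 16.9 ± 2.28 CPM (n = 3 each), a difference of -0.41 on the log2 scale with an SE of 0.11 (edgeR adjusted p = 0.0199). Its call, and with it 1 of the 2 in the list, was lost when control replicate 1, Sam68 siRNA replicate 1 or Sam68 siRNA replicate 2 was left out (highest adjusted p 0.0921 by edgeR).

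Of 15 other galectins and relatives 7 were tested and 0 were called by edgeR or by DESeq2 (0%, against 19.1% of all tested genes by edgeR). LGALS8 was the 1 with an unadjusted p below 0.05. Its log2 fold change was -0.21 (SE 0.07, adjusted p = 0.0561 by edgeR), and the groups did not overlap. HEATR1 shares exon bases with LGALS8 on the other strand and held 84.2% of its count, so that level is uncertain. LGALS1 stood at 168 and 179 CPM and LGALS3 at 62.8 and 65.2 CPM in the controls and with the Sam68 siRNA. Without control replicate 1, 1 galectin fell.

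Among 10 tested of 11 genes of the CD47 axis and of phagocytosis signals 1 rose, 2 fell and 7 were not called (30%, against 19.1%), with a median log2 fold change of -0.12. ITGAV, an integrin chain that can pair with ITGB3, fell from 468 ± 58.6 to 373 ± 26.1 CPM (n = 3 each). The difference was -0.33 on the log2 scale with an SE of 0.09 (edgeR adjusted p = 0.0287), though control replicate 5 lay below Sam68 siRNA replicate 3. ITGB3 itself had at most 1 count in a library and was not tested. CD24, also in the list above, fell as given there. THBS2, a thrombospondin, rose by 0.34 (SE 0.10, adjusted p = 0.0455 by edgeR). The number called was 0 without control replicate 3 and without Sam68 siRNA replicates 1 and 2, and 1 without Sam68 siRNA replicate 3. QPCTL, the enzyme that modifies the end of CD47 so that SIRP alpha binds it, stood at 0.13 (SE 0.12). SNRPD2 shares exon bases with QPCTL on the other strand and held 831% of its count, so that level is uncertain.

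All 17 interferon and JAK-STAT regulators were tested, and 2 rose, 1 fell and 14 were not called (17.6%, near the 19.1% of all genes), with a median log2 fold change of 0.00. STAT2, the interferon signal transducer, fell from 62.8 ± 5.14 to 48.5 ± 1.60 CPM (n = 3 each), a difference of -0.37 on the log2 scale with an SE of 0.08 (edgeR adjusted p = 0.00602). IRF9, a subunit of the interferon-activated complex ISGF3, rose from 9.96 ± 2.05 to 15.6 ± 2.27 CPM (n = 3 each), a difference of 0.65 on the log2 scale with an SE of 0.15 (edgeR adjusted p = 0.0149). An overlapping gene on the same strand held 47.5% of the IRF9 count, so its level is uncertain. IRF1, an activator of CD274, rose by 0.18 (SE 0.06, adjusted p = 0.0446 by edgeR), and was called in none of the 6 fits with a library left out (adjusted p 0.0535 to 0.205 by edgeR). It too shares exon bases with a gene on the other strand, which held 19.2% of its count. The number called was 1 without control replicate 3 and without Sam68 siRNA replicates 2 and 3.

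Of 21 genes for trafficking, glycosylation and turnover of checkpoint ligands, all tested, 2 rose, 4 fell and 15 were not called (28.6%, against 19.1%), with a median log2 fold change of 0.04. COPS5, a subunit of the COP9 signalosome reported to stabilise PD-L1, fell from 86.1 ± 5.25 to 62.5 ± 3.24 CPM (n = 3 each), a difference of -0.46 on the log2 scale with an SE of 0.07 (edgeR adjusted p = 0.00126). TRAPPC4, a trafficking subunit, fell by 0.40 on the log2 scale (adjusted p = 0.00433 by edgeR). CSPP1 shares exon bases with COPS5 on the other strand and held 29.6% of its count. RPS25 does so with TRAPPC4 and held 1452% of its count, so both levels are uncertain. UBE2G2 and BTRC, of the ubiquitin system, rose by 0.32 and 0.35 (adjusted p = 0.0077 and 0.0284 by edgeR). HIP1R and B3GNT3 lie outside the naming rule and were chosen after their values were seen. They fell by 0.20 and 0.19 on the log2 scale (adjusted p = 0.0443 and 0.0441 by edgeR). Each was called in 1 of the 6 fits with a library left out. The number called was 3 without control replicate 3 and without Sam68 siRNA replicates 1 and 3. CMTM6, which keeps PD-L1 at the cell surface, was at 0.13 (SE 0.10).

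Transcription regulators reported for these ligands were higher where they were called. Of 19 tested of 20, 6 rose, 0 fell and 13 were not called (31.6% called, against 19.1% of all tested genes, of which 9.33% rose), with a median log2 fold change of 0.12. EZH2, a histone methyltransferase, rose from 34.8 ± 1.09 to 45.4 ± 1.51 CPM (n = 3 each), a difference of 0.38 on the log2 scale with an SE of 0.07 (edgeR adjusted p = 0.00329). TP63, a regulator of squamous cells, rose by 0.33, the hypoxia factor HIF1A by 0.26 and NFKB1 by 0.24 (adjusted p = 0.0124, 0.0146 and 0.0326 by edgeR). The number that rose was 3 without Sam68 siRNA replicate 1 and 1 without Sam68 siRNA replicate 3. JUN, a partner of FOS in AP-1, whose motif stands in the VTCN1 window, was at 113, 112 and 240 CPM in controls 1, 3 and 5 and at 119, 116 and 114 CPM with the Sam68 siRNA. Control replicate 5 was the highest library for JUN, for FOS and for VTCN1. Controls 1 and 3 were below the Sam68 siRNA libraries for JUN. They were above them for VTCN1 and for FOS, at 8.57 and 9.48 CPM against 3.75 to 4.57 CPM. FOS was not called (edgeR adjusted p = 0.21). Other AP-1 subunits differed from FOS. Controls 1 and 3 were below the Sam68 siRNA libraries for FOSB, at 1.17 and 1.36 CPM against 1.62 to 2.30 CPM. The same held for FOSL1, at 79.3 and 81.8 CPM against 111 to 131 CPM, and JUNB overlapped. The part of AP-1 in the VTCN1 result was not tested.

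Of 18 costimulatory and NK-activating ligands 16 were tested, and 5 rose, 1 fell and 10 were not called (37.5% called, against 19.1% of all tested genes, of which 9.33% rose), with a median log2 fold change of 0.13. RAET1G, a ligand of the activating receptor NKG2D, was at 10.8, 12.5 and 14.8 CPM in controls 1, 3 and 5 and at 21.1, 22.2 and 20.2 CPM with the Sam68 siRNA. The groups did not overlap, and it rose by a log2 fold change of 0.74 (SE 0.11, adjusted p = 0.00118 by edgeR). The NKG2D ligands RAET1E and MICB rose by 0.94 and 0.46 (adjusted p = 0.0142 and 0.00675 by edgeR). RAET1E had 23 to 71 counts in a library, and its call was lost without Sam68 siRNA replicate 2 or 3. The NKG2D ligands MICA, ULBP2 and ULBP3 stood at 0.21, 0.05 and 0.13 and were not called (adjusted p = 0.116, 0.681 and 0.474 by edgeR). ULBP1, also an NKG2D ligand, and the death receptor FAS were named after their values were seen, and rose by 0.51 and 0.26. The call of ULBP1 was lost without Sam68 siRNA replicate 3, and FAS was called in 1 of the 6 fits with a library left out. ACTA2 shares exon bases with FAS on the other strand and held 21.8% of its count. TNFSF9, the costimulatory ligand of 4-1BB, fell from 10.5 ± 2.13 to 6.12 ± 0.918 CPM (n = 3 each), a difference of -0.77 on the log2 scale with an SE of 0.17 (edgeR adjusted p = 0.00982). The NKG2D ligands are families of relatives that could share reads, and their separate levels are uncertain. The number called was 3 without Sam68 siRNA replicate 3.

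**Figure D4:**
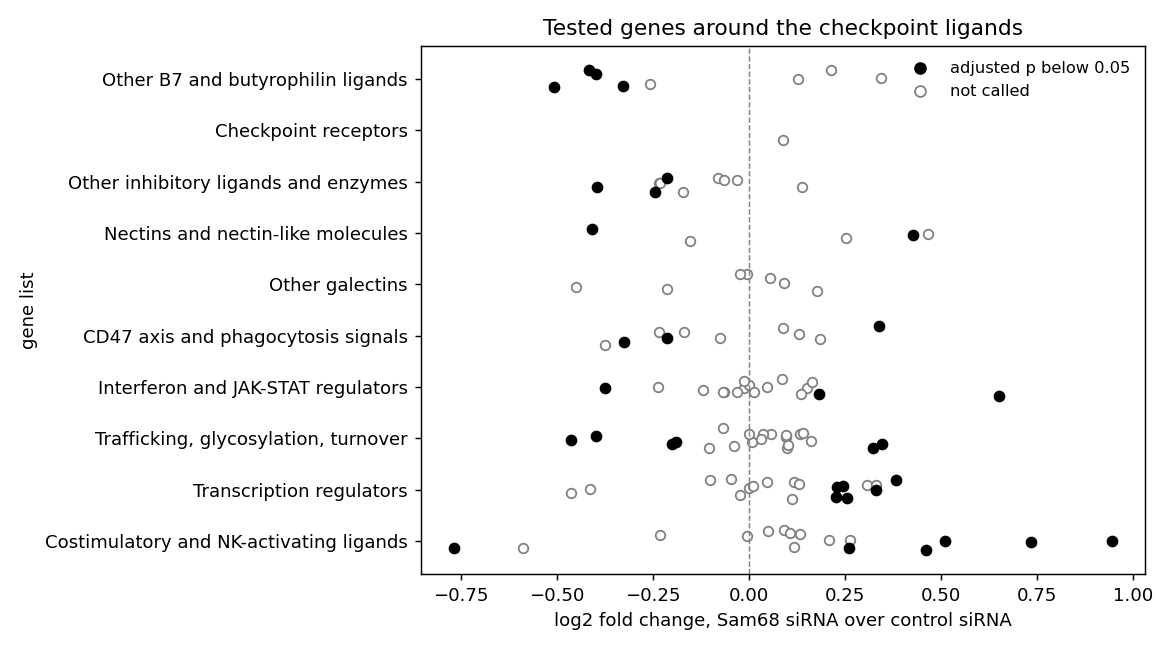
Log2 fold change of each tested gene in the 10 lists, Sam68 siRNA over control siRNA, 1 point per gene with its height within a list spread at random. Filled points passed an adjusted p of 0.05 by edgeR; all 4 called B7 and butyrophilin genes lie below 0, and 5 of 6 called costimulatory and NK-activating genes lie above it.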

How the data were processed

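Poly(A)-selected RNA from HO-1-N-1 was sequenced in 6 libraries. Reads were placed on hg38, per the submitters' processing notes. Aligner, counter, strand setting, siRNA sequences and harvest time: not given in the sources used here. For 21462 genes the deposited table held, per the file headers, raw counts, RPKM and TPM values made by the authors, a signal headed CPM that was not used, and their own comparison. That comparison gave a signed fold score, a log2 fold change and p-values (raw, FDR and Bonferroni) per gene, per the file headers, with no test named.

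The deposited counts entered edgeR 4.0.16 (R 4.3.3) unaltered. A filter, filterByExpr with a minimum count of 10 and a minimum total of 15, left 12351 genes. Scaling was by TMM, and the groups were tested with the robust quasi-likelihood F-test. A gene with a Benjamini-Hochberg adjusted p below 0.05 over all tested genes is called changed. The step was tested on simulated counts. The ligands, the 10 lists and the tests were chosen with earlier results of these data known. The naming rule took KHDRBS1, the 9 ligands, up to 4 called genes per list by smallest p, all genes of a list with 3 or fewer tested, the 5 genes most like VTCN1, and cell type markers. SPP1, FOS, FOSB, FOSL1, SPRR2D, EGR1, JUN, JUNB, CD80 and CD86 fall outside it and were chosen after their values were seen. LGALS1, LGALS3, LGALS8, ITGB3, QPCTL, CMTM6, MICA, ULBP2 and ULBP3 also fall outside it and were chosen in the same way.

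Alternatives were RLE scaling, DESeq2 1.42.0, no filter, at least 50 counts in 3 libraries, a block for the replicate number, omission of each library, and limma 3.58.1 on log2(TPM + 1) or log2(TPM + 0.1), with a mean of at least 1 TPM or no filter. Promoters came from RefSeq (8 of the 9 ligands matched) and 3' UTRs from GENCODE 29, 1 principal basic transcript per gene, with at least 50 bases. Exons of GENCODE 29 gave the overlaps. Python 3.11.15 was used.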

Additional observations from a re-analysis of the deposited data

How the results depend on the processing

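The log2 fold change of VTCN1 lay between -2.26 and -1.96 over the 14 alternatives, a description since VTCN1 was chosen by this contrast. The number of ligands past the threshold was 1 to 2 with a library left out, 2 without control replicate 1 (VTCN1 and PDCD1LG2). VTCN1 rests on 84 to 480 reads per library, and HHLA2 could not be measured at this depth.

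With a library left out, 1112 to 2666 genes were called, against 2358; without Sam68 siRNA replicate 1, 2 or 3 the number was 1537, 1112 or 1195. The lists then gave 3 to 5 other B7 and butyrophilin ligands, 0 to 4 inhibitory ligands and enzymes and 1 to 3 nectins. Galectins numbered 0 to 1, CD47 axis genes 0 to 4, and interferon and JAK-STAT regulators 1 to 2. Trafficking genes numbered 3 to 5, transcription regulators 1 to 6, and costimulatory and NK-activating ligands 3 to 8. Dropping a library leaves fewer samples, yet the number of genes called was highest, at 2666, without control replicate 5. The reason for this was not tested.

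The labels number libraries 1 and 3 in both groups, but same-numbered libraries deviated from their group means with r of -0.0656 and 0.077 across genes, so the numbers were taken as names. With the replicate block, which compares only these 2 pairs, 1046 genes were called, with 1 interferon and JAK-STAT regulator, 1 nectin and 1 inhibitory ligand.

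Limma on log2(TPM + 1) or log2(TPM + 0.1) called 1 CD47 axis gene, 1 inhibitory ligand, 3 trafficking genes and 3 transcription regulators. On log2(TPM + 1) with no filter it called 1056 genes, 0 CD47 axis genes, 1 nectin, 1 inhibitory ligand, 3 trafficking genes and 1 transcription regulator. DESeq2 called 3 trafficking genes. The cause was not tested.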
